A study of Mus musculus with 7 samples.

Results

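The genes described here are 10 matrix metalloproteinases, secreted or membrane-bound enzymes that need zinc to cut the proteins of the extracellular matrix. They were found by symbol, Mmp2, Mmp3, Mmp8, Mmp9, Mmp10, Mmp12, Mmp13, Mmp14, Mmp19 and Mmp23, through the Entrez number of each row, and all 10 matched a single row among the 27179 genes of the table. RNA sequencing measured their transcripts in the skinned whole ankles of DBA1 mice. All mice had collagen-induced arthritis, in which an immune response to injected collagen damages the joints. Into the joint went a lipoplex, a lipid carrier, that held either a miR-17-5p mimic (4 libraries, called mimic here) or an irrelevant microRNA (3 libraries, called control here). Both groups therefore had arthritis and had received the carrier, and ankles without arthritis or without an injection were not analysed here. Whether each library is a different mouse is not in the labels, so the spread behind the p-values is that between samples and may be technical.

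Metalloproteinases are made as inactive proenzymes, are switched on by other proteases and are held in check by tissue inhibitors, the Timp proteins. In the arthritic joint they are known for the breakdown of cartilage and bone matrix. Synovial fibroblasts, cartilage cells, neutrophils, macrophages and osteoclasts each make their own set of them, and inflammatory cytokines such as interleukin-1 raise the transcription of several.

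The injected microRNA and the places where the metalloproteinase transcripts could pair with its seed are shown first, since a microRNA mimic acts through such pairing. The mature strand below is from RefSeq (GRCm38.p6, chr14:115043684-115043706, plus strand), with the seed, bases 2 to 8, in capitals. The other lines give windows of the 3 prime UTR of Mmp13 and Mmp23 (GENCODE, mouse release M21), with the bases that pair with the seed in capitals.
mmu-miR-17-5p: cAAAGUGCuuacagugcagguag
Mmp23, match of 7 bases: agcagataaaGCACTTTctctctga
Mmp13, match of 6 bases: gatttacatcCACTTTtatacaacca
Taking the longest annotated 3 prime UTR of each of the 10 genes, 1 held a match of 7 or 8 bases (10% of them), beside 22.2% of the 12612 tested genes with a 3 prime UTR. The match in Mmp23 began at base 40 of a UTR of 54 bases. Mmp13 held a match of 6 bases at base 535 of its 1213. The UTRs of the other 8 genes held none of these letters, which says nothing beyond these annotated sequences.

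The libraries held between 27465276 and 31118975 reads assigned to genes. No gene of 10 cell type marker lists was at 0 in all libraries. Summed levels ranged from 1850 to 6883 FPKM in mimic ankles and from 808 to 4759 FPKM in control ankles for skeletal muscle, from 80.2 to 558 FPKM in mimic ankles and from 53.1 to 208 FPKM in control ankles for erythroid cells, and from 826 to 1132 FPKM in mimic ankles and from 504 to 822 FPKM in control ankles for adipocytes. The tested markers of these 3 lists all had a higher mean in mimic ankles. Control replicate 5 stood apart: the summed level of 6 keratinocyte markers, genes of the skin that had been removed, was 80.7 FPKM there and between 1.04 and 1.68 FPKM in the other 6 libraries. Lor and Flg, markers of the outer skin layers, stayed below a mean of 1 FPKM. Control replicate 5 also had the lowest summed level of all libraries for muscle (808 FPKM), erythroid (53.1 FPKM) and adipocyte markers (504 FPKM). Control replicates 2 and 3 stood at 4759 and 2382 FPKM for muscle, 208 and 165 FPKM for erythroid cells and 822 and 565 FPKM for adipocytes. Without control replicate 2, 318 of 13418 genes passed at an adjusted p under 0.05 (2.37%), 203 of them lower in mimic ankles (1.51%), and 0 of the metalloproteinases were among them.

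The 10 genes spanned more than 3 orders of magnitude in level, and the order of their mean levels was the same in both groups. FPKM, fragments per kilobase scaled to the library total, is a level per length, so that different genes can be compared. In mimic ankles Mmp3 averaged 751 ± 170 FPKM (SD, n = 4), Mmp2 745 ± 104, Mmp13 532 ± 74.6, Mmp9 341 ± 21.9 and Mmp14 291 ± 9.39 FPKM. In control ankles Mmp3 averaged 1332 ± 297 FPKM (SD, n = 3), Mmp2 647 ± 31.6, Mmp13 626 ± 128, Mmp9 475 ± 21.6 and Mmp14 293 ± 19.1 FPKM. Mmp3 overlapped with Mmp2, the next in the order, in mimic ankles and stood above it in every control ankle. Mmp2 overlapped with Mmp13 in control ankles and stood above it in every mimic ankle. No other neighbours in the order overlapped within a group. By their mean over the 7 libraries, Mmp3 held rank 37, Mmp2 rank 71, Mmp13 rank 95, Mmp9 rank 147 and Mmp14 rank 197 among all 27179 genes. Mmp23, Mmp19, Mmp8, Mmp12 and Mmp10 followed, at 58.4, 32.4, 8.82, 1.91 and 0.555 FPKM in mimic ankles and 57.8, 33.8, 15.2, 1.48 and 0.397 FPKM in control ankles.

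**Figure D1:**
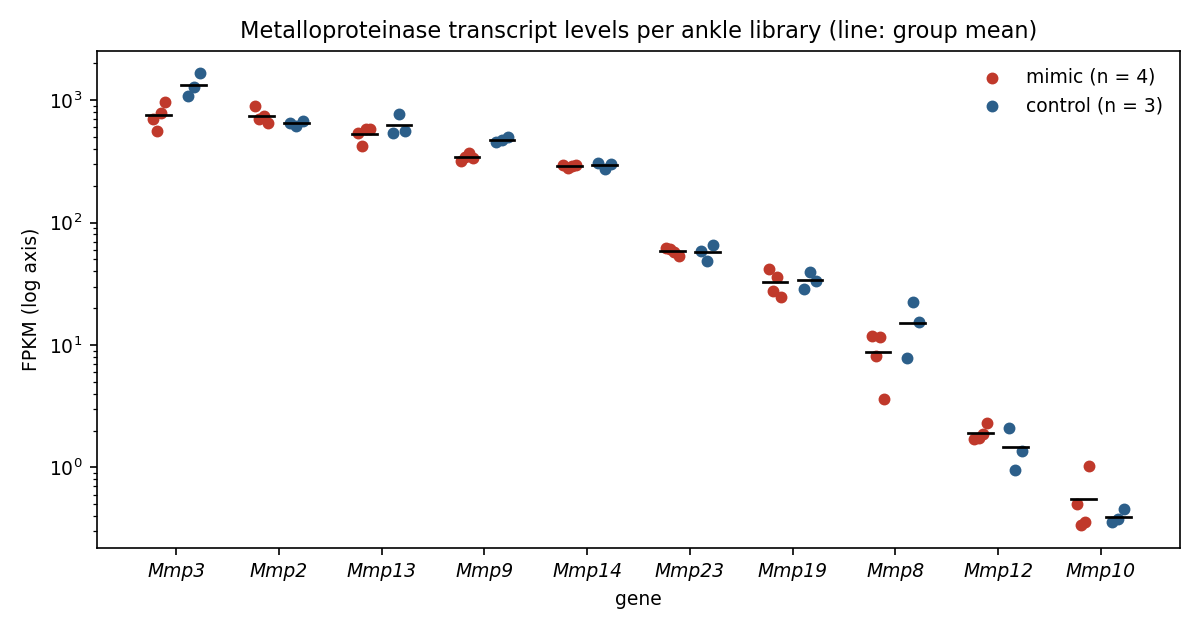
FPKM (log axis) of the 10 metalloproteinase genes in each library, with the 4 mimic libraries to the left of the 3 control libraries and a line at each group mean. For Mmp3 and Mmp9 every mimic point lies below every control point, and for the other 8 genes the groups overlap.

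The comparison of mimic with control ankles asks how raising miR-17-5p altered transcript levels in the arthritic joint. Of the 10 genes, 9 had a mean of at least 1 FPKM and entered a limma fit over 13418 genes on log2(FPKM + 0.5). None of the 9 passed at an adjusted p under 0.05, and the same was true of all genes tested (0%). With an unadjusted p under 0.05 there were 2 of the 9, Mmp3 and Mmp9, both lower in mimic ankles, beside 17.6% of all genes tested (10.1% lower and 7.48% higher in mimic ankles). The groups did not overlap at the same 2 genes, beside 15.3% of all genes tested (8.84% lower and 6.48% higher in mimic ankles). Of the 9 genes, 6 had a lower mean in mimic ankles, beside 51.7% of all genes tested. Their median log2 fold change was -0.076, beside -0.0063 over all genes tested.

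**Figure D2:**
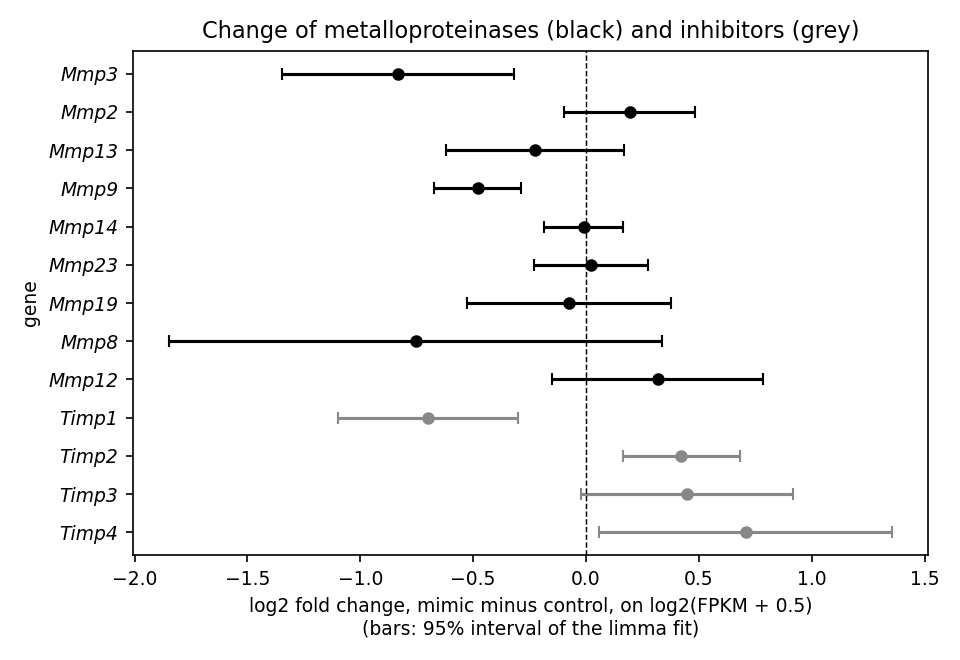
Log2 fold change, mimic minus control, of 9 metalloproteinase genes (black) and 4 Timp genes (grey), with the 95% interval of the limma fit. The intervals of Mmp3, Mmp9 and Timp1 lie below 0 and those of Timp2 and Timp4 above it, before any adjustment for the number of genes.

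Of the stromelysins, Mmp3 was abundant and lay lower in each mimic ankle than in the controls, and Mmp10 was scarce. Mmp3 encodes stromelysin-1, which cuts proteoglycans and activates other proenzymes of the family (mm10 chromosome 9, 7445822 to 7455975). It stood at 700, 556, 783 and 963 FPKM in mimic replicates 1, 2, 4 and 5, against 1072, 1269 and 1656 FPKM in control replicates 2, 3 and 5. The groups did not overlap, although mimic replicate 5 came near the lowest control. The log2 fold change was -0.83 (SE 0.22, 95% interval -1.35 to -0.32, limma adjusted p = 0.176), a ratio of 0.562. Without control replicate 5, the library with the keratinocyte transcripts and the highest Mmp3, it was -0.66. The 8 fibroblast markers summed to between 11984 and 12864 FPKM in mimic ankles and between 11048 and 13126 FPKM in control ankles, with overlapping groups. Most of this sum was Col1a1 and Col3a1, which are also in the list of substrates below. The mean log2(FPKM + 0.5) over the 8 markers, which weighs them equally, overlapped too (7.61 to 7.86 in mimic, 7.65 to 7.92 in control ankles). Of these markers, 5 of the 8 had a lower mean in mimic ankles. Their part in the difference was not tested. In bulk tissue, fewer cells of a type and less RNA per cell cannot be told apart.

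Mmp10, which encodes stromelysin-2, lay below 1 FPKM and was not tested. It stood at 0.4998, 0.337, 0.358 and 1.02 FPKM in the mimic libraries, against 0.356, 0.382 and 0.454 FPKM in the control libraries. These values rested on 26, 18, 18 and 51 reads in the mimic libraries, against 18, 18 and 24 reads in the control libraries. Mimic replicate 5 lay highest, with an exact Poisson interval of 38.0 to 67.1 reads that covers counting error alone, and the groups overlapped. Mmp10 and Mmp3 shared an identical run of 104 bases in the GENCODE transcripts, the longest between any of the 10 genes and another metalloproteinase gene. Mmp3 had between 31134 and 91928 reads per library, so the few reads given to Mmp10 are uncertain. Among the other 8 genes the longest such run was 33 bases.

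Both collagenases had a lower mean in mimic ankles, with overlapping groups. Mmp13 encodes collagenase-3, the main enzyme that cuts fibrillar collagen in mouse cartilage and bone (chromosome 9, 7272514 to 7283333). It stood at 535, 425, 583 and 584 FPKM in the mimic libraries, against 543, 773 and 562 FPKM in the control libraries. A single library, control replicate 3, lay above all others. The log2 fold change was -0.23 (SE 0.17, 95% interval -0.62 to 0.17, limma adjusted p = 0.493), and moved to -0.066 with control replicate 3 left out or -0.12 with mimic replicate 2 left out. The 8 chondrocyte markers summed to between 770 and 912 FPKM in mimic ankles and between 694 and 821 FPKM in control ankles, with overlapping groups. Their mean log2(FPKM + 0.5) did not overlap, at 4.28 to 4.56 in mimic ankles and 3.83 to 4.03 in control ankles. Of these 8 markers, 7 had a higher mean in mimic ankles. All 8 osteoblast markers had a higher mean in mimic ankles, with sums of 1020 to 1146 FPKM in mimic ankles and 626 to 978 FPKM in control ankles. The mean log2(FPKM + 0.5) of the osteoblast markers overlapped narrowly, at 5.66 to 5.88 in mimic ankles and 4.46 to 5.67 in control ankles. Control replicate 5 was the lowest for the osteoblast markers by both measures (626 FPKM and 4.46), followed by control replicate 3 (812 FPKM and 5.45). The part of the chondrocyte and osteoblast markers in the Mmp13 values was not tested.

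Mmp8 encodes neutrophil collagenase, which neutrophils store in granules (chromosome 9, 7558429 to 7568486). It stood at 11.9, 8.15, 11.6 and 3.62 FPKM in mimic replicates 1, 2, 4 and 5, against 7.79, 22.3 and 15.4 FPKM in control replicates 2, 3 and 5. Mmp8 had the widest spread of the 9 genes, with an SD of 0.79 log2 units over the 7 libraries, and its groups overlapped. The log2 fold change was -0.76 (SE 0.47, 95% interval -1.85 to 0.34, limma adjusted p = 0.417). It was -0.43 without control replicate 3, -0.40 without mimic replicate 5 and -1.16 without control replicate 2. The 11 neutrophil markers summed to 3529, 2789, 3313 and 1373 FPKM in mimic replicates 1, 2, 4 and 5, against 3206, 6544 and 5518 FPKM in control replicates 2, 3 and 5. From high to low the libraries stood in the same order for these sums as for Mmp8, apart from an exchange of mimic replicate 2 and control replicate 2. By the mean log2(FPKM + 0.5) over the 11 markers, mimic replicate 1 (6.48) and control replicate 5 (6.47) were exchanged as well. All 11 markers had a lower mean in mimic ankles, and their part in the Mmp8 values was not tested.

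The gelatinases, which cut denatured and basement membrane collagen, differed from each other. Mmp9 encodes gelatinase B, made by osteoclasts and neutrophils (chromosome 2, 164948251 to 164955846). It stood at 316, 340, 369 and 338 FPKM in the mimic libraries, against 454, 475 and 497 FPKM in the control libraries. Both groups were tight and lay apart. The log2 fold change was -0.48 (SE 0.083, 95% interval -0.67 to -0.29, limma adjusted p = 0.173), a ratio of 0.717. Mmp9 had the 34th smallest p of the 13418 genes tested. An exact 2-sided permutation test over the 35 ways to divide the 7 libraries gave p = 0.0286, the smallest possible here, or 0.278 after adjustment over all genes tested. That was the lowest adjusted value of any gene in this test, shared by every gene at the smallest p. Leaving out any single library kept the log2 fold change between -0.52 and -0.44, with a limma adjusted p of 0.0502 without control replicate 2 and of at least 0.235 without any other. The 7 osteoclast markers summed to between 1728 and 1941 FPKM in mimic ankles and between 2148 and 2269 FPKM in control ankles, without overlap. All 6 osteoclast markers that were tested had a lower mean in mimic ankles, and Calcr, the calcitonin receptor of osteoclasts, lay below 1 FPKM. The part of osteoclasts or neutrophils in the Mmp9 values was not tested.

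Mmp2 encodes gelatinase A, made by fibroblasts (chromosome 8, 92827328 to 92853420). It stood at 890, 698, 744 and 648 FPKM in the mimic libraries, against 648, 615 and 678 FPKM in the control libraries. The mean was higher in mimic ankles, but mimic replicate 5 lay within the controls. On the log2 scale the fold change was 0.19 (SE 0.12, 95% interval -0.096 to 0.49, limma adjusted p = 0.430), and 0.11 without mimic replicate 1. The ratio of Mmp3 to Mmp2 was 0.787, 0.796, 1.05 and 1.49 in the mimic libraries, against 1.65, 2.06 and 2.44 in the control libraries.

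Mmp12, macrophage elastase, had a low level in all libraries (chromosome 9, 7347374 to 7360461). It stood at 1.72, 1.73, 1.89 and 2.30 FPKM in the mimic libraries, against 2.11, 0.959 and 1.37 FPKM in the control libraries. The groups overlapped through control replicate 2. Between the groups the difference was 0.32 on the log2 scale (SE 0.20, 95% interval -0.15 to 0.79, limma adjusted p = 0.425), with 0.54 without control replicate 2 and 0.12 without control replicate 3. Of 8 macrophage markers tested, 5 had a lower and 3 a higher mean in mimic ankles, and Marco, a scavenger receptor of some macrophages, lay below 1 FPKM. The 9 macrophage markers summed to between 1134 and 1517 FPKM in mimic ankles and between 1269 and 1435 FPKM in control ankles, so the groups overlapped.

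The membrane-bound enzymes hardly differed between the groups. Mmp14, a membrane-anchored collagenase that activates the proenzyme of Mmp2 with the help of Timp2, varied least of the 9 genes (chromosome 14, 54431604 to 54441258). It stood at 298, 277, 292 and 296 FPKM in the mimic libraries, against 306, 271 and 303 FPKM in the control libraries. The groups overlapped widely, with a log2 fold change of -0.011 (SE 0.074) and a 95% interval of -0.19 to 0.16. Mmp23, anchored by its amino terminus, stood at 61.7, 60.8, 57.7 and 53.4 FPKM in the mimic libraries, against 58.3, 49.0 and 66.2 FPKM in the control libraries (chromosome 4, 155650655 to 155653384). Its mimic values lay within the range of the controls, and its short UTR holds the seed match shown above. This gave a log2 fold change of 0.022 (SE 0.11, 95% interval -0.23 to 0.27).

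Mmp19, a secreted enzyme of synovial and other tissues, stood at 41.9, 27.5, 35.7 and 24.7 FPKM in the mimic libraries, against 28.9, 39.3 and 33.1 FPKM in the control libraries (chromosome 10, 128790910 to 128800824). The mimic libraries held both the highest and the lowest values. This gave a log2 fold change of -0.076 (SE 0.19, 95% interval -0.53 to 0.38). A share of 22.8% of its joined exon length overlaps Tmem198b on the other strand, and reads of the pair cannot be told apart without a stated strand setting. None of the other 9 genes overlapped the exons of another gene in the table.

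**Figure D3:**
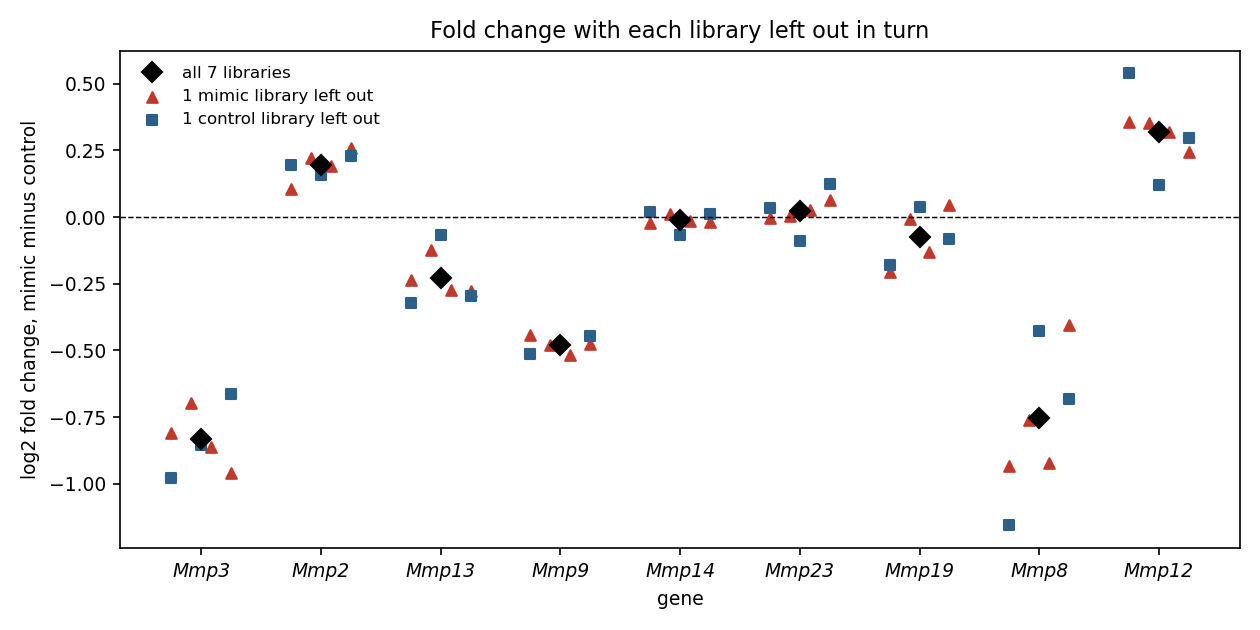
Log2 fold change, mimic minus control, of the 9 tested genes with all 7 libraries (diamonds), with a mimic library left out (triangles) and with a control library left out (squares). Mmp3, Mmp8, Mmp9 and Mmp13 stay below 0 and Mmp2 and Mmp12 above it, while Mmp14, Mmp19 and Mmp23 cross 0.

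The summed level of the 10 genes was below all 3 control values in each of the 4 mimic libraries. It came to 2856, 2395, 2879 and 2915 FPKM in the mimic libraries, against 3120, 3515 and 3812 FPKM in the control libraries. Most of this gap lay in Mmp3: without it the sums were 2156, 1840, 2096 and 1951 FPKM in the mimic libraries, against 2048, 2246 and 2156 FPKM in the control libraries, which overlapped. Mmp3 made up 27.0% ± 4.37 of the sum in mimic ankles (SD, n = 4) and 38.0% ± 4.82 in control ankles (SD, n = 3). Mmp2 made up 27.1% ± 3.90 in mimic ankles and 18.7% ± 1.82 in control ankles, and these shares did not overlap either. The 10 genes held between 98.7% and 99.0% of the FPKM of all 23 metalloproteinase genes in mimic ankles, and between 99.0% and 99.4% in control ankles.

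**Figure D4:**
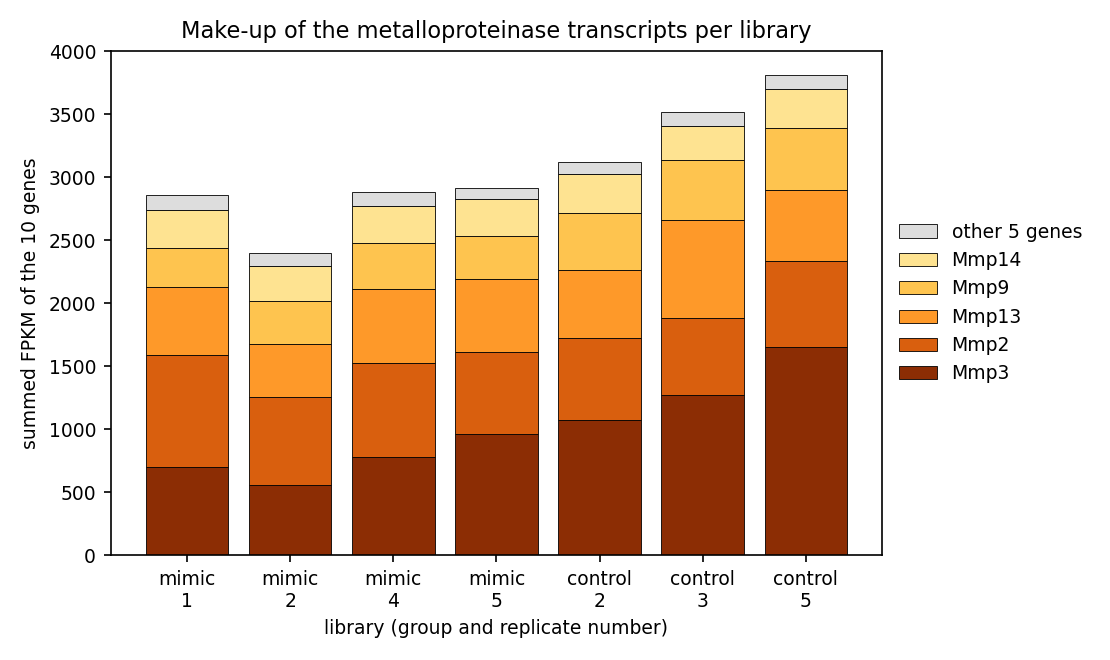
Summed FPKM of the 10 metalloproteinase genes in each library, stacked by gene, with the 4 mimic libraries to the left of the 3 control libraries. The lowest segment, Mmp3, is smaller in each mimic bar (556 to 963 FPKM) than in each control bar (1072 to 1656 FPKM), and the segments above it differ less.

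Of the 6 inhibitors tested, the groups did not overlap for Timp1, Timp2 and Reck, beside 15.3% of all genes tested. Timp1, a broad inhibitor of secreted metalloproteinases, stood at 712, 571, 751 and 547 FPKM in the mimic libraries, against 880, 1012 and 1256 FPKM in the control libraries. Timp2, which also takes part in the activation of Mmp2, stood at 488, 399, 383 and 403 FPKM in the mimic libraries, against 332, 320 and 282 FPKM in the control libraries. Timp1 was lower and Timp2 higher in each mimic library than in any control library, with log2 fold changes of -0.70 (SE 0.17) and 0.42 (SE 0.11), neither of which passed over all genes tested (limma adjusted p = 0.174 and 0.176). The summed level of the 10 enzymes was 2.45 ± 0.307 times that of the 4 Timp genes in mimic ankles (SD, n = 4) and 2.47 ± 0.0546 times in control ankles (SD, n = 3), with overlapping groups.

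Of the pairs of an enzyme with an inhibitor, the ratio of Mmp14 to Timp2 was 0.611, 0.695, 0.763 and 0.734 in the mimic libraries, against 0.920, 0.848 and 1.08 in the control libraries. The groups did not overlap, and the ratio was lower in all 4 mimic libraries, with a difference of -0.43 on the log2 scale. An exact 2-sided permutation test gave p = 0.0286, the smallest possible, which did not pass after adjustment over 3 ratios (adjusted p = 0.0857). With 35 divisions of the libraries, a ratio that reaches the smallest p alone among the 3 cannot pass. Taken singly, Mmp14 had a log2 fold change of -0.011 and Timp2 of 0.42. The ratio of Mmp3 to Timp1 was 0.983, 0.973, 1.04 and 1.76 in the mimic libraries, against 1.22, 1.25 and 1.32 in the control libraries (-0.13 on the log2 scale, exact permutation p = 0.657, adjusted p = 0.657). Mimic replicate 5 alone lay above the controls, and without it the difference was -0.34. It was -0.057 without mimic replicate 1, -0.052 without mimic replicate 2 and -0.086 without mimic replicate 4. The ratio of Mmp9 to Timp1 averaged 0.537 ± 0.0837 in mimic ankles and 0.460 ± 0.0607 in control ankles, with overlapping groups (0.22 on the log2 scale, exact permutation p = 0.257, adjusted p = 0.386), and differed by 0.11 without control replicate 5.

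The remaining 13 metalloproteinase genes stood at lower levels. Of these, 7 had a mean of at least 1 FPKM, 6 of them with a higher and 1 with a lower mean in mimic ankles, and a median log2 fold change of 0.13. By limma 0 passed after adjustment, with 0 lower and 1 higher at an unadjusted p under 0.05, beside 10.1% lower and 7.48% higher of all genes tested. The median was 0.068 without control replicate 5 (2 of 7 lower) and 0.24 without control replicate 2. With no filter on low values it was 0.0092, with 6 of 13 lower. Mmp28, the last described member of the family, stood at 3.03 ± 0.546 FPKM in mimic ankles (SD, n = 4) and 2.24 ± 0.389 FPKM in control ankles (SD, n = 3). Mmp11, a stromelysin of tissue remodelling, stood at 15.2 ± 1.96 FPKM in mimic ankles and 12.4 ± 2.30 FPKM in control ankles. Mmp15, a membrane-type enzyme, stood at 7.31 ± 0.619 FPKM in mimic ankles and 6.46 ± 0.672 FPKM in control ankles. The groups overlapped for each of these 3 genes.

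Neighbouring genes differed widely in level. On chromosome 9, 10 metalloproteinase genes lie within 427 kilobases (7272514 to 7699416), 5 of them among the genes described here. In order along the chromosome, Mmp13 averaged 532 FPKM in mimic ankles and 626 FPKM in control ankles, Mmp12 1.91 FPKM in mimic ankles and 1.48 FPKM in control ankles, Mmp1b 0.0337 FPKM in mimic ankles and 0.136 FPKM in control ankles, and Mmp3 751 FPKM in mimic ankles and 1332 FPKM in control ankles. Mmp1a, next to Mmp3, was listed at 0 in all 4 mimic libraries and had at most 3 reads in a control library. Past Mmp10 and Mmp8, Mmp27 averaged 1.11 FPKM in mimic ankles and 0.984 FPKM in control ankles, while Mmp20 and Mmp7 had at most 4 reads in a library.

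**Figure D5:**
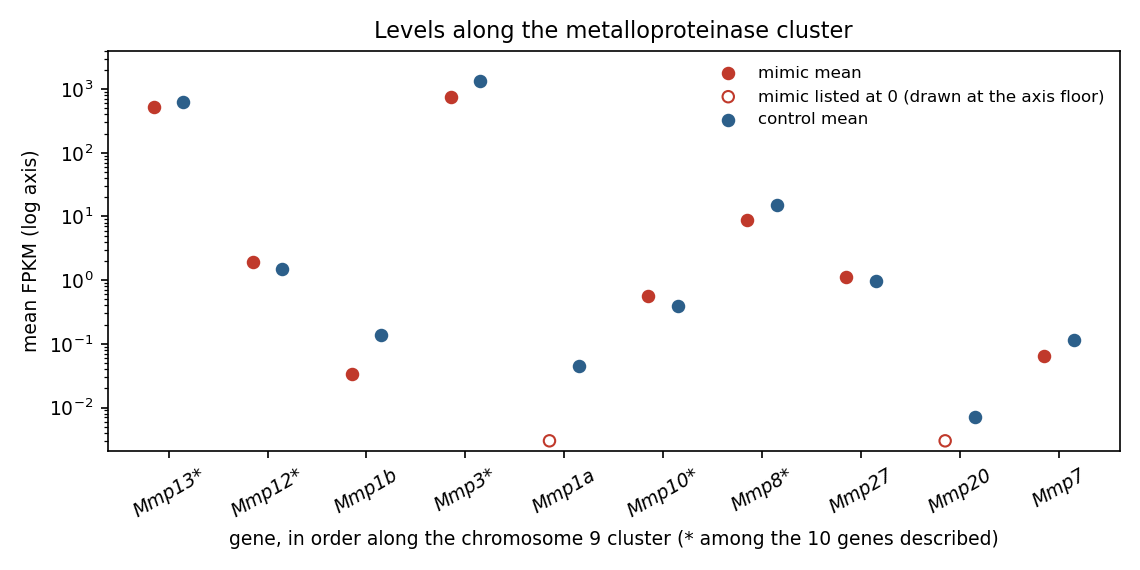
Mean FPKM (log axis) of the 10 metalloproteinase genes of the chromosome 9 cluster, in their order along the chromosome, with the mimic mean to the left of the control mean. Mmp13 (532 FPKM in mimic, 626 FPKM in control ankles) and Mmp3 (751 FPKM in mimic, 1332 FPKM in control ankles) stand far above their direct neighbours.

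The binding element of AP-1, the Fos and Jun dimer through which cytokines induce several metalloproteinases, was searched as TGANTCA on both strands, where N is any base, from 250 bases before to 50 bases after the annotated starts. Promoter windows were at hand for 7 of the 10 genes, not for Mmp2, Mmp9 and Mmp19. These 7 genes had 9 windows, since Mmp12 and Mmp23 had a pair each. A match lay in 4 of the 9 windows, at Mmp3, Mmp10, Mmp12 and Mmp13, all in the chromosome 9 cluster, beside 7.81% of all 32851 windows. They are shown with 10 bases on either side and the element in capitals, from RefSeq (GRCm38.p6, plus strand), in the order chr9:7445766-7445792, chr9:7502269-7502295, chr9:7347320-7347346 and chr9:7272469-7272495.
Mmp3, 46 bases before the start: gaagcaattaTGAGTCAgttttcgggt
Mmp10, 63 bases before the start: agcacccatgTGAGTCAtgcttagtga
Mmp12, 44 bases before the start: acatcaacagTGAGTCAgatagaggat
Mmp13, 35 bases before the start: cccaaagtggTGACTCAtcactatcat
The genes with the element did not share a level or a direction. Mmp3 and Mmp13 stood at 425 FPKM or more in every library, with log2 fold changes of -0.83 and -0.23, whereas Mmp12 and Mmp10 reached at most 2.30 FPKM, and Mmp12 had 0.32.

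The list of inducers and regulators of metalloproteinase transcription had a lower mean in mimic ankles for 19 of 22 genes tested (median log2 fold change -0.33, beside -0.0063 over all genes tested). By limma 0 passed after adjustment, 12 were lower and 0 higher at an unadjusted p under 0.05 (10.1% and 7.48% of all genes tested), and the groups did not overlap for 11 of the 22, all lower in mimic ankles (8.84% of all genes tested). A lower mean was seen for 51.7% of all genes tested. With a library left out, the median of the list lay between -0.43 (without control replicate 2) and -0.23 (without control replicate 3, 18 of 22 lower). It was also -0.23 with the replicate block or with no filter on low values. Il1b, the cytokine that induces Mmp3 and Mmp13 in joint cells, stood at 50.7, 64.9, 53.0 and 31.0 FPKM in the mimic libraries, against 84.8, 126 and 144 FPKM in the control libraries. Lif, a cytokine of the interleukin-6 family, stood at 4.02 ± 1.57 FPKM in mimic ankles (SD, n = 4) and 10.2 ± 1.44 FPKM in control ankles (SD, n = 3). Junb, a subunit of AP-1, stood at 79.8 ± 13.3 FPKM in mimic ankles and 142 ± 26.9 FPKM in control ankles. For each of these 3 genes all mimic values lay below all control values, with limma adjusted p of 0.174, 0.173 and 0.174. The part of the neutrophil and other marker levels given above in these values was not tested.

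Activators and partner proteases had a lower mean in mimic ankles for 15 of 19 genes tested (median log2 fold change -0.29). By limma 0 passed after adjustment, with 10 lower and 0 higher at an unadjusted p under 0.05, beside 10.1% lower and 7.48% higher of all genes tested, of which 51.7% had a lower mean. For 6 of the 19 the groups did not overlap, all lower in mimic ankles, beside 8.84% of all genes tested. The median was -0.44 without mimic replicate 1, -0.48 without mimic replicate 4, -0.52 without control replicate 2 and -0.42 without control replicate 5. It was -0.24 without mimic replicate 2 or mimic replicate 5. Without control replicate 3 it was -0.22, and 12 of the 19 had a lower mean. Plau, the urokinase that makes plasmin, an activator of proenzymes, stood at 34.9, 35.6, 40.3 and 35.3 FPKM in the mimic libraries, against 45.8, 54.8 and 60.3 FPKM in the control libraries. Adamts4, an aggrecanase, stood at 11.0 ± 1.19 FPKM in mimic ankles (SD, n = 4) and 20.7 ± 6.02 FPKM in control ankles (SD, n = 3). Plat, the tissue plasminogen activator, stood at 15.6, 13.1, 15.3 and 19.4 FPKM in the mimic libraries, against 19.0, 27.4 and 26.4 FPKM in the control libraries, and overlapped. The list also holds Elane, one of the neutrophil markers above, and Ctsk, one of the osteoclast markers. The part of these cells in the values of the list was not tested.

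The inhibitors divided: of 6 tested, 2 had a lower and 4 a higher mean in mimic ankles (median log2 fold change 0.38). By limma 0 passed after adjustment, with 1 lower and 3 higher at an unadjusted p under 0.05, beside 10.1% lower and 7.48% higher of all genes tested. The median was 0.25 without control replicate 5, and -0.0053 with no filter on low values. Reck, a membrane-anchored inhibitor, stood at 8.96 ± 0.833 FPKM in mimic ankles and 6.98 ± 0.945 FPKM in control ankles, and Timp3 at 65.1 ± 12.8 FPKM in mimic ankles and 47.6 ± 9.84 FPKM in control ankles. Substrates had a higher mean in mimic ankles for 13 of 19 genes tested (median log2 fold change 0.11). By limma 0 passed after adjustment, with 1 lower and 1 higher at an unadjusted p under 0.05, no larger a share of the 19 than of all genes tested (10.1% lower and 7.48% higher). For 4 of the 19 the groups did not overlap, all higher in mimic ankles, beside 6.48% of all genes tested. Col2a1, the collagen of cartilage that Mmp13 cuts, stood at 45.9, 62.3, 59.9 and 44.6 FPKM in the mimic libraries, against 26.5, 32.7 and 39.4 FPKM in the control libraries, without overlap. It is itself among the 8 chondrocyte markers given above, and the part of cartilage in its values was not tested. Vcan, a large proteoglycan, stood at 12.4 ± 2.39 FPKM in mimic ankles and 20.9 ± 6.97 FPKM in control ankles, with overlapping groups. Sparc, a collagen-binding protein of bone, stood at 6034 ± 410 FPKM in mimic ankles and 4976 ± 185 FPKM in control ankles, without overlap.

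For the 2 tested genes whose SD over the libraries exceeded 0.5 log2 units, Mmp3 and Mmp8, the genes with the most similar pattern were found by the root mean square distance between log2 profiles, each centred on its mean over the 7 libraries, leaving out predicted genes and pseudogenes. The genes nearest to Mmp3 were Snord22, a small nucleolar RNA, at 0.17 log2 units, Plat, at 0.19, and Siglece, a receptor of myeloid cells, at 0.20. Nearest to Mmp8 were Ifitm6, at 0.14, Trem3, at 0.15, and Pglyrp1, a granule protein of neutrophils, at 0.18. Of the 16 metalloproteinase genes tested, the nearest was Mmp9 at 0.31 from Mmp3 and Mmp25 at 0.32 from Mmp8. All distances are a description over the same 7 libraries and share their depth and their make-up of tissues.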

How the data were processed

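Per the file headers, the authors deposited FPKM for every gene in every library, beside exon positions and joined exon lengths under Entrez numbers. Tools in the submitters' processing notes, whose roles are unstated, were STAR 2.5.2b, bcl2fastq 2.20, Subread, featureCounts and DESeq2 1.14.1, on mm10 or GRCm38. For the annotation release and the strand setting the sources used here have no entry. Multiplied by length, 100% of the FPKM were whole multiples of a step particular to the library, to within 0.01 read, and so returned reads. Of 27179 Entrez numbers, 25275 matched a RefSeq symbol. No pair of libraries differed by as little as sampling noise (chi-square of at least 16.7 per gene).

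Mimic and control libraries were compared by limma 3.58.1 (R 4.3.3, lmFit, eBayes with a trend) on log2(FPKM + 0.5), for the 13418 genes whose mean reached 1 FPKM, with Benjamini-Hochberg adjustment over all of them, 2-sided, at 0.05. Such fold changes understate the change of low genes. The test was also run on simulated data. The genes and lists were chosen with earlier results of these data known. Named were all 10 metalloproteinases, the 3 genes of each of 5 lists with the smallest p, the fixed genes Timp1, Timp2, Timp3, Plau, Il1b and Col2a1, and the 3 nearest in pattern for genes with an SD above 0.5. Lists of 10 cell types were summed per library, and the mean log2(FPKM + 0.5) over a list was given for some. Some cell type markers were also named. Alternatives were pseudocounts of 0.1 and 1, no filter, a stricter filter at 5 FPKM, median-of-ratios scaling, no trend, limma-voom on recovered reads, the replicate number as a block, exact permutation and leaving out each library. Protein motifs were not analysed here. Python 3.11.15, pandas 2.3.3, scipy 1.17.1 and matplotlib 3.10.9 were used.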

Additional observations from a re-analysis of the deposited data

Results flagged for a closer look

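With 31 groups of 4 mimic libraries examined for a library far from the others, chance alone gives about 1 flag in 20 groups, and 3 were found. The summed level of the 10 metalloproteinases was 2395 FPKM in mimic replicate 2, while the other 3 mimic libraries lay between 2856 and 2915 FPKM. The ratio of Mmp3 to Timp1 was 1.762 in mimic replicate 5, against 0.973 to 1.04 in the other 3 mimic libraries. The same library had the highest Mmp10, the lowest Mmp8 and the lowest summed neutrophil markers (1373 FPKM) of the 7. Plau stood at 40.33 FPKM in mimic replicate 4 and between 34.9 and 35.6 FPKM in the other 3 mimic libraries. The causes were not tested.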

How the results depend on the processing

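For the 9 tested metalloproteinases, 135 of 143 values under an alternative kept their direction and their side of the threshold, and none passed at an adjusted p under 0.05. The exceptions all concerned genes near 0: Mmp14 (-0.066 to 0.020 with a library left out) turned to 0.012 without mimic replicate 2, 0.020 without control replicate 2 and 0.013 without control replicate 5, Mmp19 to 0.044 without mimic replicate 5 and 0.038 without control replicate 3, and Mmp23 (-0.091 to 0.12 with a library left out) to -0.0046 without mimic replicate 1, -0.091 without control replicate 3 and -0.12 with the replicate block. Across all genes, leaving out control replicate 2 gave 115 higher and 203 lower genes, 1 was lower with no filter on low values, and 0 passed under every other setting. Limma-voom on recovered reads called 0 genes, with 2362 at an unadjusted p under 0.05. Leaving out a library kept the median of the 9 genes between -0.21 (without mimic replicate 1) and -0.0083, of the inhibitors between 0.25 and 0.43, and of the activators between -0.52 (without control replicate 2) and -0.22. With a filter at 5 FPKM only Mmp11 and Mmp15 remained of the other metalloproteinases, with a median of 0.23 and 0 lower. With no filter the inhibitor median was -0.0053, with all 9 genes of the list fitted and 5 of them lower in mimic ankles. Leaving out a library gave a log2 difference between -0.41 and -0.27 in the summed level, and without Mmp3 it was -0.098. The ratio of the sum to the Timp genes differed by -0.017 and, without Mmp3, by 0.22 on the log2 scale. Seed matches of 8 bases were held by 0 of the 10 genes, beside 4.24% of the 12612 tested genes with a 3 prime UTR. Matches of 6 or more bases were held by 2 of the 10 (20%), beside 42.1% of those genes. The groups share the replicate numbers 2 and 5, with correlations of 0.54 and -0.43 between the deviations of same-numbered libraries. The labels do not say whether the numbers pair animals, and 2 correlations of opposite sign cannot decide it. The main fit had no block. With the replicate block, Mmp3 had -0.86 (limma adjusted p = 0.524) and Mmp9 -0.48 (0.524), 7 of 9 genes had a lower mean and 0 genes passed. This fit takes the difference from the libraries numbered 2 and 5 only, since every other number occurs in a single group. It has therefore little power. The depth limits Mmp10, with 18 to 51 reads a library. The cause of these changes was not tested.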
